A study of Drosophila melanogaster with 2 samples.

Results

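The genes described here are 31 Drosophila melanogaster genes of mesoderm formation, myoblast fusion and muscle structure, out of 13968 annotated protein-coding genes. They were taken by name from a list drawn up with earlier results of these data known, and all 31 were found in the annotation. They comprise 9 mesoderm regulators (twi, sna, tin, bap, Mef2, nau, htl, ths and pyr), 5 fusion genes (mbc, kirre, rst, rols and sns), 15 sarcomere genes (Mhc, Act57B, Act87E, Act79B, Act88F, Tm1, Tm2, up, wupA, Mlc1, Mlc2, bt, sls, Mf and Prm) and 2 integrin genes (if and mys). The question was which of them had binding sites of D19B, a zinc-finger protein, and where in each gene these sites lay. Binding was mapped by ChIP-seq, sequencing of immunoprecipitated chromatin, in pooled male and female embryos, 0 to 24 h old, of the transgenic line D19B-GFP, in which GFP is joined to the C terminus of D19B. Per the labels' description the antibody was against GFP, although another label field names D19B, and sonication gave fragments of 200 to 800 bp. The data comprise 2 libraries of this 1 group, biological replicates 2 and 3, and the control library used by the authors was not analysed here. Whole embryos were used, so the cells in which a site was bound are unknown, and which promoter drives the tagged protein is not stated in the labels. The authors' list of peaks that passed an irreproducible discovery rate (IDR) threshold held 4309 peaks on genome build dm6. Read depth is unknown from such lists.

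In the fly embryo, Twist and Snail set up the mesoderm, and FGF ligands signal through the receptor Heartless as the mesodermal cells spread. Tinman and Bagpipe then specify heart and visceral muscle, and Mef2 drives muscle differentiation. Body wall muscles form when founder cells, which carry Kirre and Roughest, fuse with fusion-competent myoblasts, which carry Sticks and stones. The fused fibres then build sarcomeres of actin, myosin and tropomyosin and attach to tendon cells through integrins.

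Among the listed genes, D19B-GFP summits were present at some regulators, at all fusion genes and at few sarcomere genes. A summit, the highest point of a peak, lay within 500 bp of an annotated transcription start site (TSS) at 7 of the 31 genes (22.6%), against 15.3% of all protein-coding genes. These 7 were tin, htl, mbc, rols, Tm1, sls and if. A summit elsewhere in the gene or within 5 kb of it was found at 15 of the 31 genes (48.4%), against 36.6% of all protein-coding genes, and for 10 of the 15 it was the only kind. The remaining 14 genes (45.2%) had no summit in the gene or within 5 kb, against 56.4% of all protein-coding genes. A gene with more annotated TSSs has more windows of 500 bp, and the shares were not split by the number of TSSs. No test was made of these shares: genes are not replicates, and both libraries belong to 1 group.

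By role, 5 of 5 fusion genes, 2 of 2 integrin genes and 6 of 9 mesoderm regulators had at least 1 summit, against 4 of 15 sarcomere genes. Over all 31 genes it was 17 (54.8%), against 43.6% of all protein-coding genes. The sarcomere genes without one were Mhc, Act87E, Act79B, Act88F, Tm2, up, wupA, Mlc2, bt, Mf and Prm. The regulators without one were sna, bap and pyr. Long genes hold more sequence, and the roles differed in length: the median was 56.6 kb for fusion genes, 7.77 kb for mesoderm regulators and 9.11 kb for sarcomere genes. Among all protein-coding genes of 10 kb or longer, 63.1% had a summit in the gene or within 5 kb, and among shorter ones 40.4% did. Of the listed genes, 11 of 17 long ones and 6 of 14 short ones had one, both close to these background shares. Within the sarcomere genes the counts were 2 of 7 long and 2 of 8 short ones, and within the other 16 genes they were 9 of 10 long and 4 of 6 short ones. All 5 fusion genes were among these 10 long ones. The difference between the roles was not tested.

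**Figure D1:**
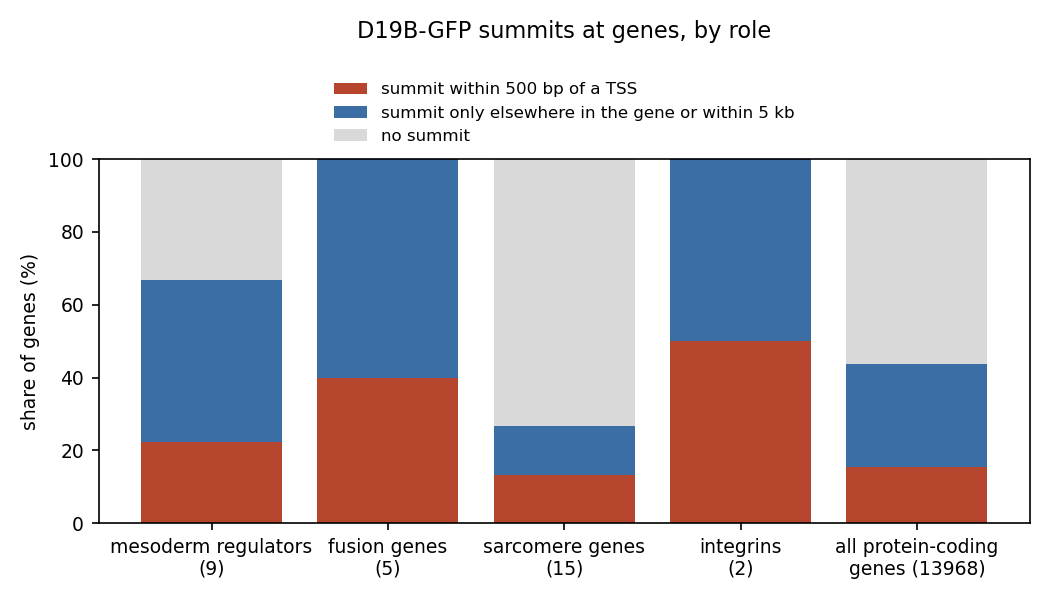
Share of genes (%) with a D19B-GFP summit within 500 bp of a TSS, with one only elsewhere in the gene or within 5 kb, or with none, for each role and for all 13968 protein-coding genes; the number of genes is under each bar. The grey part is 73.3% for the 15 sarcomere genes and 56.4% for all protein-coding genes.

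The height of a peak is the authors' signal over the control. The peaks at the listed genes numbered 56, of which 1 was shared by the overlapping genes kirre and rst. Their signal in the list of both libraries ranged from 118 to 2291 with a median of 182.8, against a median of 199.5 over all 4309 peaks, and 26 of the 56 lay above that median. The 11 peaks at TSSs had a median of 214.8, and the 45 elsewhere had a median of 173.7. Counted once for each gene, 37 lay in introns, 11 upstream of the gene, 5 downstream, 2 in a 5' UTR, 1 in a 3' UTR and 1 in a coding exon. The 3 genes with the tallest peaks, Tm1, rols and Mef2, each had a different role. Other starts were nearer to the tallest Tm1 and Mef2 summits: MRG15 at 15 bp and Pdrg1 at 168 bp.

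**Figure D2:**
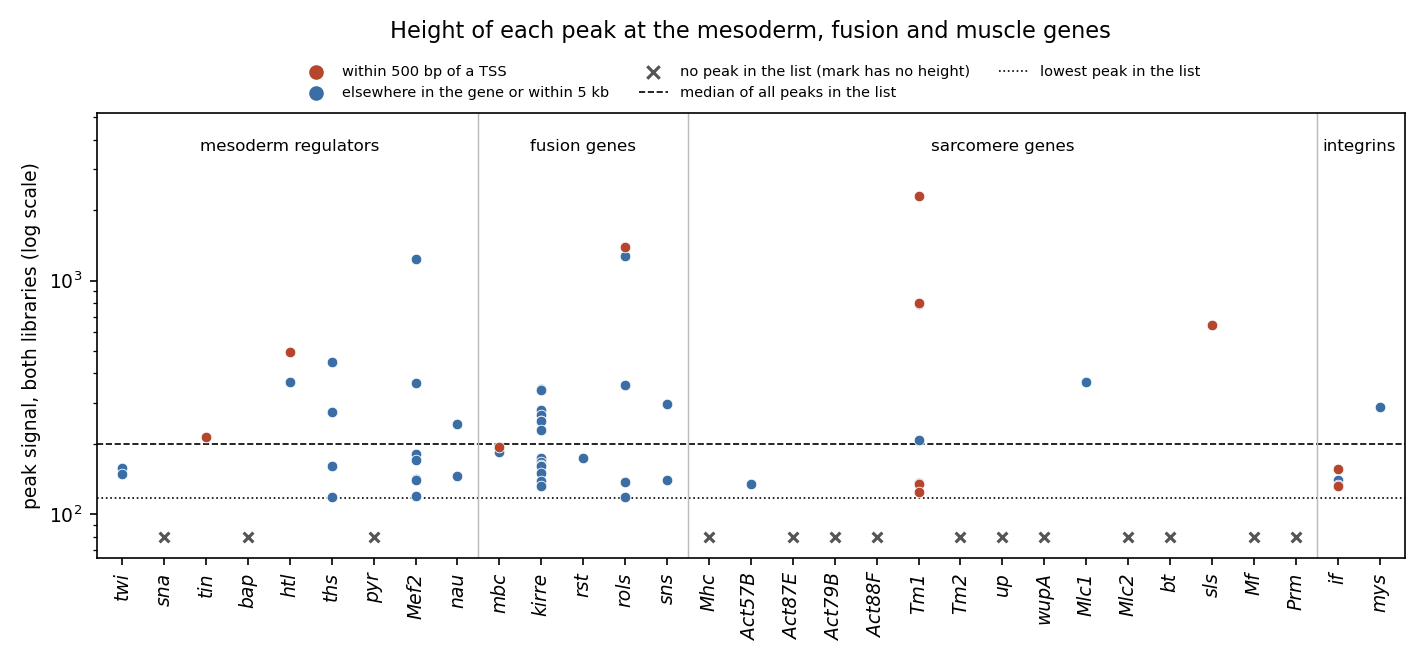
Signal of each peak in the list of both libraries (log scale) at the 31 genes, ordered by role; red points lie within 500 bp of a TSS, blue points elsewhere, and crosses mark genes with no peak. Tm1 reached 2291, rols 1392 and Mef2 1239, while 14 genes have only a cross. The tallest Tm1 and Mef2 summits are nearer to the start of another gene.

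Sequence under start-site peaks of a fusion, a sarcomere and 2 regulator genes, and under a neighbouring peak, is shown for comparison. Each line is the dm6 plus strand of the release 6 assembly, 5' to 3', with 50 bases on each side of a summit and no annotated UTR. Capitals mark letters that match a searched word on either strand, and no site is claimed. TATAAA, or its reverse complement TTTATA, is the word of TATA boxes. CACTTG is the reverse complement of CAAGTG, the core of Tinman sites. The TATAAA and TTTATA matches at rols and tin lie in windows centred 338 bp and 241 bp upstream of a TSS of the gene. The sls and htl lines hold none of the words. The second rols line is the neighbouring summit of a close pair, 538 bp upstream of the TSS and so outside the 500 bp limit. CAAGTG was in 0 of the 11 start-site windows.
rols (chr3L:12056762-12056862): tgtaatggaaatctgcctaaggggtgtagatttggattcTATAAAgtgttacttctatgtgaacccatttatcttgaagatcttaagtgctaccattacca
rols (chr3L:12056962-12057062): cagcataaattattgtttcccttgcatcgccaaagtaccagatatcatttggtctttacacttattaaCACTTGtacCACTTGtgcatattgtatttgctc
sls (chr3L:2115817-2115917): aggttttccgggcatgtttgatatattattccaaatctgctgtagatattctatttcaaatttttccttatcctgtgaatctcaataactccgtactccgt
htl (chr3R:18049630-18049730): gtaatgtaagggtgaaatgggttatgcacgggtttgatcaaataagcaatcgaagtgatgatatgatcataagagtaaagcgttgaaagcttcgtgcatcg
tin (chr3R:21378686-21378786): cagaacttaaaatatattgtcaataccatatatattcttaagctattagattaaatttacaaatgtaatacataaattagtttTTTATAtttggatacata
The window of the tallest Tm1 peak overlaps UTRs of MRG15 and l(3)neo43, so 30 bases beside its summit are shown, with the searched word ACAGGGTA in capitals. A kirre intron peak that holds the same word is given next to it.
Tm1 (chr3R:15278122-15278151): atcgattatttACAGGGTAttgtcttggta
kirre (chrX:2744711-2744740): catatgcatttACAGGGTAtcagcgggtcg
ACAGGGTA starts 9 bp after the Tm1 summit and 45 bp before the kirre summit. Only ACAGGGTA is in capitals in the Tm1 and kirre lines. The kirre line also opens with another searched word, CATATG, which is left in lower case. That match lies before 2744717, where the kirre window with 50 bases on each side of the summit starts, so it was not counted in that window.

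The words were searched on both strands in the 56 windows with 50 bases on each side of a summit. ACAGGGTA, a word known from an earlier look at all peaks, was in 4 windows (7.14%), at Mef2, Tm1, kirre and ths, against 2.97% of all 4309 windows. CAAGTG was in 6 windows (10.7%), against 5.43% of all windows. Those 6 were at the fusion genes kirre, mbc and rols, the integrin gene mys and the regulator twi, and not at tin itself. Fusion genes held 23 of the 56 peaks. Of the E-box words that Twist binds, CACATG was in 1 window (1.79%), against 3.53% of all, and CATATG was in 0, against 3.88%. TATAAA was in 9 windows (16.1%), against 22.5% of all. CAGCTG, another E-box word, was in 1 (1.79%), against 2.74%. TATCGATA, a word of BEAF-32 and DREF sites, was in 0, against 0.998%, and CGATA, which lies within it, was in 7 (12.5%), against 13.3%. With 100 bases on each side, counts were higher for each word except TATCGATA, which stayed at 0, and over all peaks for each word. CATATG was then in 3 windows (5.36%), at kirre, nau and tin, against 7.43% of all, and CACATG in 2 (3.57%), against 7.24%. CAAGTG was in 11 of these wider windows (19.6%), against 11.3% of all, and TATAAA in 16 (28.6%), against 37.0%. These are counts of letters, with no test, and the median GC content was 34.7% in these windows, against 32.7% in all.

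Among the sarcomere genes, Tm1 (FBgn0003721, chr3R:15278220-15308779, plus strand) had the tallest peak of all 31 genes. Tm1 encodes tropomyosin, which lies along the actin filament, and it has muscle and non-muscle forms made from 8 annotated TSSs. The tallest summit, at 15278124, was 96 bp upstream of the first TSS. Its signal was 1531 in replicate 2 and 752 in replicate 3, with 2291 in both libraries together, which ranked 35 of 4309. A second summit in the same region, 105 bp downstream of that TSS, had 461 in replicate 2, 295 in replicate 3 and 804 in both. The region also held the start of MRG15, a chromatin protein gene on the other strand, 15 bp from the tallest summit, so the peak stood at a pair of divergent starts.

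The other Tm1 peaks were lower. A summit 353 bp upstream of another TSS had a signal of 124.7 in both libraries together, and one in a coding exon 461 bp downstream of a further start had 135. Summits in introns had 208 and 136, and the lower of these had a match in replicate 2 only. A peak 2838 bp upstream of the gene had 526.5 in replicate 2, 265 in replicate 3 and 790.3 in both, but lay 140 bp from the TSS of CG4338. The gene next to Tm1 on the chromosome is Tm2, the other tropomyosin gene of muscle, which starts 1413 bp after the end of Tm1. Tm2 had no summit in the gene or within 5 kb.

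The sls gene (FBgn0086906, chr3L:2039681-2115611, minus strand) encodes Sallimus, a titin-like protein that ties thin filaments to the Z-disc. Its only peak had its summit 256 bp upstream of its single TSS, with 373 in replicate 2, 271 in replicate 3 and 646 in both. No other gene start was nearer, and the gene itself, 75.9 kb long, held no summit. The other sarcomere genes with a peak had it away from their TSS. At Mlc1, a myosin light chain gene, a peak with 229 in replicate 2, 141 in replicate 3 and 369 in both lay in the 3' UTR. It was 3030 bp from the Mlc1 start and 151 bp from that of tau, a microtubule-binding protein gene. At Act57B, a muscle actin gene, a peak with 89.1 in replicate 2, 50.2 in replicate 3 and 134.9 in both lay 4044 bp upstream.

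For the other 11 sarcomere genes, the deeper lists of 30000 regions were read, which also include background regions. They comprise the only muscle myosin heavy chain gene (Mhc), 3 actin genes, Tm2, the troponin T gene up, the troponin I gene wupA, the light chain gene Mlc2, the projectin gene bt, the myofilin gene Mf and the paramyosin gene Prm. A listed region had its summit within 500 bp of a TSS at 4 of the 11 in the list of both libraries, 8 of the 11 in replicate 2 and 4 of the 11 in replicate 3. Among all protein-coding genes the shares were 39.6%, 45.6% and 31%, and these were not split by the number of TSSs. The signals were between 30.5 and 104.9 in the list of both libraries, and the lowest peak of the IDR list had 117. Nearest to that limit was Act87E, an actin gene, with 59.4 in replicate 2, 43.4 in replicate 3 and 104.9 in both, at rank 4900. At Mhc, which has 5 annotated TSSs, the only listed region at a TSS had 30.1 in replicate 2 and 30.5 in both, at rank 29610, and replicate 3 listed none.

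**Figure D3:**
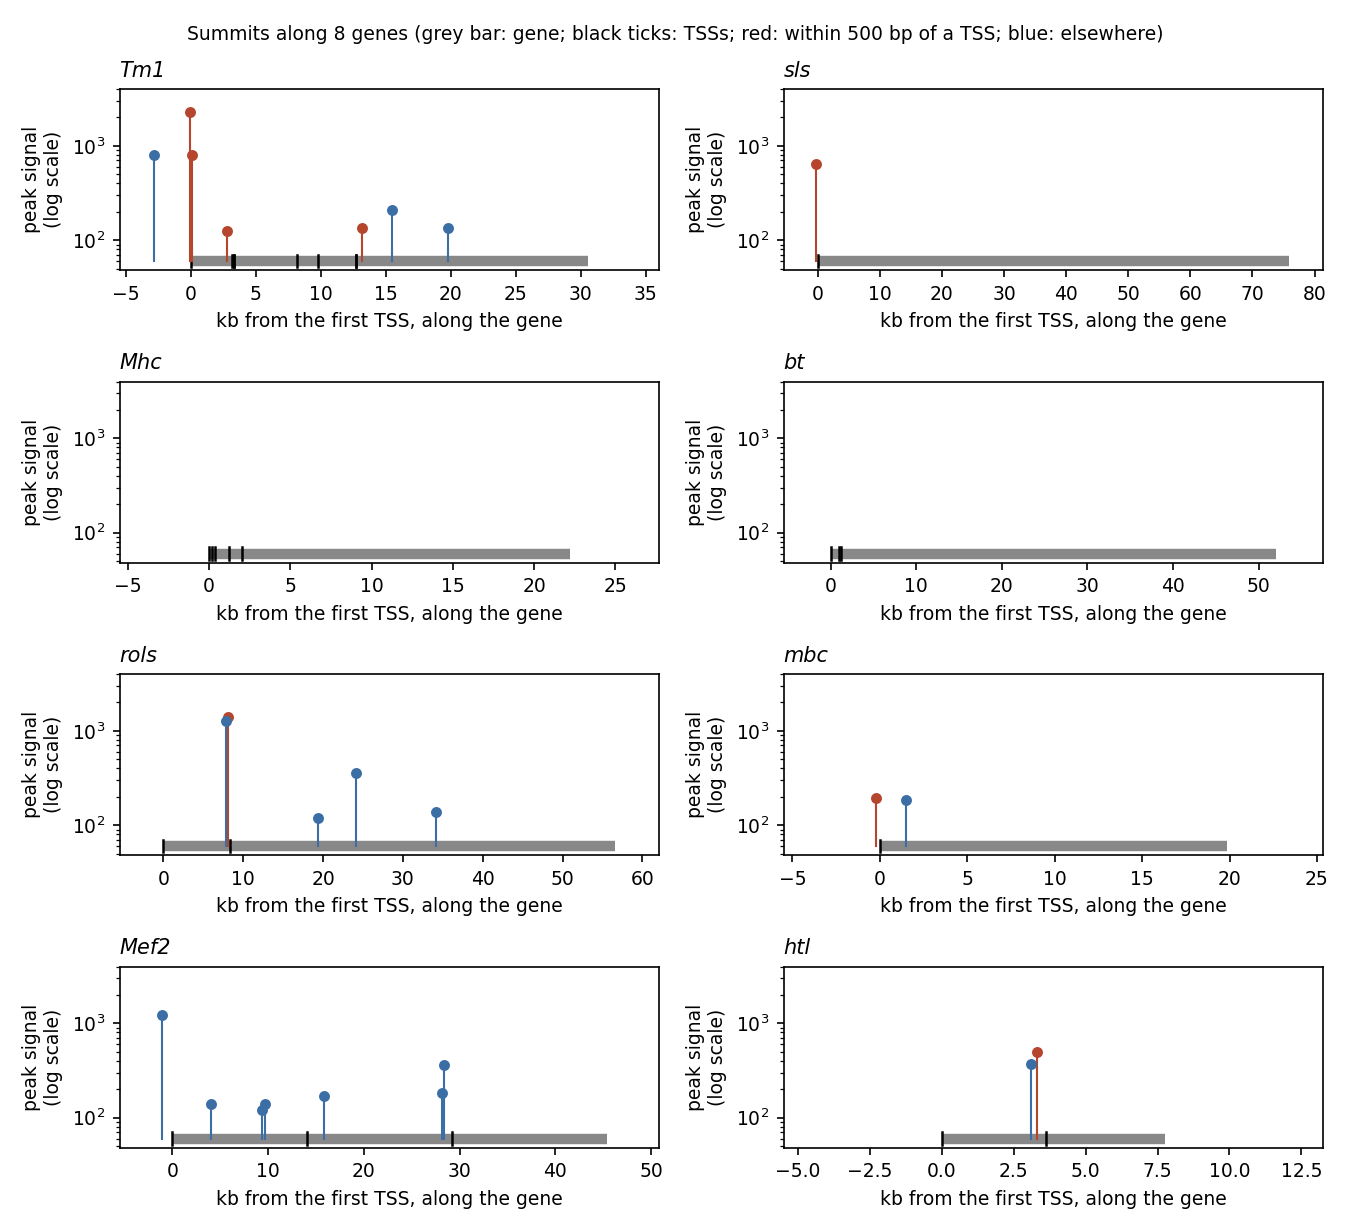
Position of each summit along 8 genes, in kb from the first TSS in the direction of transcription, with its signal in both libraries together (log scale); grey bars are genes, black ticks TSSs, red summits within 500 bp of a TSS and blue summits elsewhere. Tm1 and Mef2 carry 7 summits each, sls has 1 at its start, and Mhc and bt have none.

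Of the fusion genes, rols had the tallest peak. The rols gene (FBgn0041096, chr3L:12008225-12064859, minus strand) encodes an adaptor in founder cells that links the adhesion receptors to the cytoskeleton. Its main summit was 338 bp upstream of the inner of its 2 TSSs and within an intron of the longer transcripts. The signal was 924 in replicate 2 and 1392 in both libraries together, at rank 97. A second summit 200 bp away had 841 in replicate 2, 467 in replicate 3 and 1274 in both. Replicate 2 placed its summits at 12056807 and 12057006. Replicate 3 placed 1 between them, at 12056925, and a lower one of 62.1 at 12057127. The main summit therefore had no match within 100 bp in replicate 3, although the region was listed there with 467 at rank 103. The further 3 rols peaks, in introns and nearer to the starts of other genes, had signals from 118 to 358.

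The mbc gene (FBgn0015513, chr3R:23781765-23801634, plus strand) encodes Myoblast city, an activator of the GTPase Rac in fusion. Its summit 199 bp upstream of the TSS had 124.8 in replicate 2, 70.5 in replicate 3 and 193 in both. The TSS of Nup98-96, a nuclear pore gene, was nearer to that summit, at 55 bp. A second peak 1505 bp downstream of the mbc start had 134 in replicate 2, 49.5 in replicate 3 and 184.9 in both. Replicate 3 also listed a taller summit there, of 95.3 at 23782999, which was too far away for a match within 100 bp. The peaks of mbc were thus below the median of the list at both places.

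The receptors of fusion had no summit at a start site. The kirre gene (FBgn0028369), an immunoglobulin-family receptor gene of founder cells, is the longest of the 31, with 394 kb on X, and its 14 peaks had signals from 131 to 344. The tallest of them had 214.9 in replicate 2, 126.9 in replicate 3 and 344 in both, but lay 313 bp from the TSS of Syx4, a syntaxin gene that overlaps the start of kirre on the other strand. For 4 of the 14 the nearest TSS of any protein-coding gene was that of kirre. The peak shared with rst, which encodes a related receptor, was 4241 bp upstream of the rst start and had 93.9 in replicate 2, 80.1 in replicate 3 and 173.7 in both. At sns, the receptor gene of fusion-competent myoblasts, an intron peak had 188 in replicate 2, 108 in replicate 3 and 297 in both. A second sns peak, of 140.6, lay past the end of the gene and 231 bp from the start of RyR, the ryanodine receptor gene.

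Among the transcription factor genes of the mesoderm, tin had a summit at its TSS. The tin gene (FBgn0004110, chr3R:21378977-21381970, plus strand) encodes the homeodomain protein needed for the heart. Its only peak was 241 bp upstream of its single TSS, with 162 in replicate 2, 55.9 in replicate 3 and 214.8 in both. This was close to the median of the list. The next gene of the cluster, bap, a homeodomain gene of visceral muscle, starts 6909 bp beyond the end of tin and had no peak. At bap, a region of 33.6 at rank 25588 was the only one in the list of both libraries. The sna gene, a zinc-finger repressor gene, had no region in that list or in replicate 2's, and its tallest in replicate 3 was 23.6.

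Mef2 (FBgn0011656, 2R, 9913496 to 9958858, minus strand) encodes a MADS-domain factor that drives differentiation of all muscle. It had 7 peaks and none within 500 bp of its 3 TSSs. The tallest was 1042 bp upstream of the gene, with 817 in replicate 2, 422 in replicate 3 and 1239 in both, at rank 108. The TSS of Pdrg1 was nearer, at 168 bp. For each of the other 6 peaks, with signals from 119.6 to 363, the nearest TSS was that of Mef2 itself. The tallest of these 6 was in an intron, 892 bp upstream of an inner TSS, with 277 in replicate 2, 90.3 in replicate 3 and 363 in both. At nau, the fly relative of MyoD, 2 summits of 242.5 and 146 lay 4591 and 4797 bp upstream, both nearer to the start of CG10365. At twi, the basic helix-loop-helix gene that starts mesoderm formation, 2 peaks lay beyond the end of the gene, with 158 and 148.8 in both libraries together, and the nearest start was that of Fatp2.

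The FGF pathway had peaks at the receptor and at 1 of its 2 ligand genes. The receptor gene htl (FBgn0010389, chr3R:18045216-18052984, minus strand) had a summit 314 bp upstream of its inner TSS, in an intron of the longest transcript. The signal was 218 in replicate 2, 275 in replicate 3 and 493 in both, at rank 584. A second summit 203 bp away had 182.5 in replicate 2, 187 in replicate 3 and 368 in both. The ligand gene ths had 4 intron peaks, with signals from 118.6 to 446, and the tallest had 279.98 in replicate 2 and 165 in replicate 3. It lay 19166 bp from the nearest ths start, and the start of CG13192 was nearer still. The ligand gene pyr, which lies 30.5 kb away, had none, and its tallest region in the list of both libraries had 65.5.

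At the integrin genes, the peaks of if were below the median of the list, and that of mys was above it. The alpha subunit gene if (FBgn0001250), needed in muscle for attachment, had summits 468 bp and 229 bp downstream of different TSSs. The first had 141 in replicate 2, 44.4 in replicate 3 and 156 in both, and the second had 87.6 in replicate 2, 47.0 in replicate 3 and 132.4 in both. Another 2 peaks past the end of if lay 63 and 690 bp from the start of goe. The beta subunit gene mys had 1 peak, 4136 bp upstream, with 158 in replicate 2, 127.9 in replicate 3 and 288 in both, and its nearest start, 808 bp away, was that of the bromodomain gene fs(1)h.

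The summits just inside the 500 bp limit were those of if at 468 bp and of Tm1 at 461 bp. Just outside were the second summits of htl at 517 bp and of rols at 538 bp, and both genes also had a summit inside. The next gene outside was Mef2, at 892 bp. For 28 of the 56 peaks the nearest protein-coding TSS was that of the listed gene, and for 21 of the 56 some protein-coding TSS lay within 500 bp, against 41.8% of all 4309 peaks.

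The libraries were compared at each of the 56 peaks, within each library's own list. A summit within 100 bp was present in both libraries for 52 of the 56 peaks (92.9%), against 86.7% of all peaks, and the other 4 had a match in replicate 2 only. Those 4 were the main rols summit and 1 summit each of Mef2, nau and Tm1. Signals were higher in replicate 2 at most peaks, with a median ratio of replicate 2 to replicate 3 of 1.87, against 1.91 over all shared peaks. No scaling between the libraries' lists was applied, so this ratio and the next count describe unscaled values. At 4 of the 52 peaks (7.69%) the signal was higher in replicate 3, against 7.79% of all shared peaks. These were both htl summits, 1 kirre peak and 1 twi peak. The twi peak differed most, with 34.7 at rank 14010 in replicate 2 and 111 at rank 1144 in replicate 3. The main htl summit stood at rank 1072 in replicate 2 and 269 in replicate 3.

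**Figure D4:**
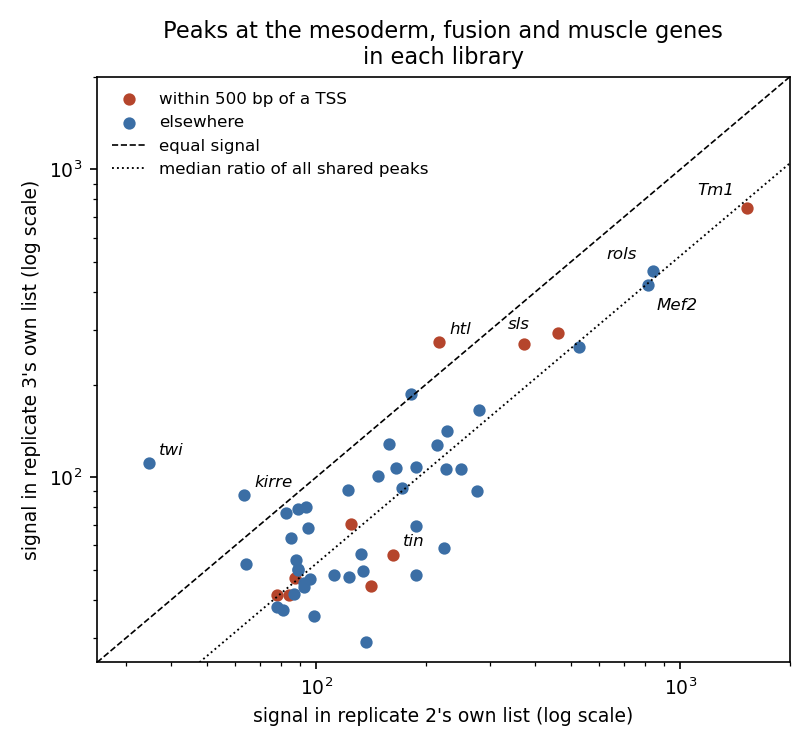
Signal of each of the 52 shared peaks in replicate 2's own list and in replicate 3's own list (both log scale); the dashed line marks equal signals and the dotted line the median ratio of 1.91 over all shared peaks. The 4 peaks above the dashed line are those of twi, kirre and htl, and the tallest, of Tm1, rols and Mef2, sit near the dotted line.

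A further 69 genes of the same processes were counted. A summit lay at a TSS of 11 of them (15.9%), close to the 15.3% of all protein-coding genes: 1 of 21 mesoderm genes, 2 of 14 fusion genes, 4 of 19 sarcomere genes and 4 of 15 attachment genes. With summits elsewhere in the gene or within 5 kb included, 43 of the 69 (62.3%) had one, against 43.6% of all protein-coding genes. By length, they were 22 of 28 genes of 10 kb or longer, against 63.1% of all such genes, and 21 of 41 shorter ones, against 40.4%. By role, 13 of 21 mesoderm genes (61.9%) and 9 of 14 fusion genes (64.3%) had one. So did 12 of 19 sarcomere genes (63.2%) and 9 of 15 attachment genes (60%). The shares of the roles were thus close to each other, unlike in the first list. The 12 further sarcomere genes were 9 of 9 long ones and 3 of 10 short ones. In the first list, 2 of 7 long and 2 of 8 short sarcomere genes had one. The mesoderm gene with a summit at a TSS was org-1, a T-box gene of muscle identity. Its peak had 155.7 in replicate 2, 163 in replicate 3 and 315.5 in both. The fusion genes with a summit at a TSS were Hem, of the actin-nucleating WAVE complex, and Vrp1, which acts with WASp. Their peaks had 359 and 191 in both libraries together. The start of IleRS was nearer to the Hem peak than that of Hem.

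The tallest start-site peaks among these further sarcomere and attachment genes were those of Msp300 and Pax. Msp300, a giant spectrin-repeat protein gene of muscle nuclei, had 593 in replicate 2, 321 in replicate 3 and 907 in both. Actn, the alpha-actinin gene of the Z-disc, had 339 in replicate 2, 289.7 in replicate 3 and 625 in both, and tmod, which caps actin filaments, had 217 in both. Of the attachment genes, Pax, the paxillin gene, had 755 in both libraries together, but other starts were nearer to its peak. Vinc, the vinculin gene, had 310 in replicate 2, 120.7 in replicate 3 and 441 in both, with its summit 72 bp from its TSS. The alpha integrin gene scb had 266.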

How the data were processed

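ChIP-seq peak lists of 2 libraries were used, biological replicates 2 and 3 of 1 group. Per the deposited file records, the authors called regions against a control for each library and for both together, listed 30000 in each case, and passed these to an IDR step that gave 4309 peaks on dm6. No source used here names the aligner, the peak caller, their versions or the IDR threshold. The signal of a region is the authors' height over the control and is not scaled between libraries; it served to describe and rank peaks within a list, and unscaled signals of the libraries are also set side by side and as a ratio, as a description only. Summit offsets are as deposited and, per the file format, count from the region start; other lists, on dm3, were not used. The number of per-sample columns with no place in the design was 0.

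Genes and TSSs came from Ensembl release 115, transposable elements left out. Sequence came from the RefSeq release 6 assembly, which shares dm6 coordinates. Positions are 1-based. A summit counted for every gene whose TSS lay within 500 bp, or else whose span extended by 5 kb held it. Library heights are those of the nearest summit within 100 bp in that library's list. Of the further pathway genes, 2 (Arf51F and Unc-89) were matched under their present symbols Arf6 and Obsc. Genes named are all members, the up to 3 tallest start-site peaks of each pathway role, and nearer neighbouring genes. Members, lists and words were chosen with earlier results of these data known. No test was made. Counts were recomputed under other TSS windows, reaches, lists and matching distances, and words also with 100 bases on each side of a summit. The counting was tested on simulated data. Python 3.11.15, numpy 2.4.6, pandas 2.3.3 and matplotlib 3.10.9 were used.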

Additional observations from a re-analysis of the deposited data

How the results depend on the processing

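The count of 7 genes with a summit at a TSS depended most on the window. With 200 bp it was 2 (Tm1 and mbc), with 0 mesoderm regulators, 1 fusion gene, 1 sarcomere gene and 0 integrin genes. With 1000 bp it was 8, Mef2 being added. With a reach of 2 kb, 12 genes had any summit, among them 4 mesoderm regulators and 1 integrin gene. With 10 kb, 7 sarcomere genes had one, adding Act87E, Tm2 and wupA. The counts under other settings have no share of all protein-coding genes beside them. In the 2154 tallest peaks, start-site summits were at 1 fusion gene and 0 integrin genes, and any summit at 3 fusion genes and 1 integrin gene. When each peak counted only for the protein-coding gene with the nearest TSS, summits elsewhere were at 9 genes and a start-site summit at 1 fusion gene. Any summit was then at 12 genes, among them 4 mesoderm regulators and 1 integrin gene. With the 4309 tallest regions of either library alone, the same 7 genes had a summit at a TSS, and without replicate 2 Act87E was added there and bt with a summit elsewhere. Merging summits of the same region, an alternative chosen after seeing the data, moved no rank of a gene's tallest peak by over 1.5 times. In all, 67 recomputed counts that answer a comparison stayed within 1.5 times their value and 14 did not. With 100 bases on each side of a summit in place of 50, the counts of windows with CGATA (12), TATAAA (16), CACATG (2), CATATG (3), CAAGTG (11) and CAGCTG (2) moved by over 1.5 times or, for CATATG, from 0. No paired analysis was possible because the libraries belong to 1 group.

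The lists give no read depth, so a gene without a peak is one where none was listed at this threshold, and absence of binding cannot be read from it. Heights depend on a control that was not analysed here. Signals of the 2 libraries are unscaled, so a ratio between them, or the higher of them, describes the lists as deposited.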
